A study of Homo sapiens with 6 samples.

Results

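The genes examined were 38 genes of the endoplasmic reticulum (ER) that fold secreted and membrane proteins, remove those that fail to fold, or sense that failure, out of 19792 genes listed for BT-549 cells. The members were set by name as ER chaperones, disulfide isomerases, genes of ER-associated degradation (ERAD), genes of translocation and export, and sensors of the unfolded protein response (UPR), and all 38 were found among the listed genes. BT-549 cells come from a human breast tumour that lacks the estrogen, progesterone and HER2 receptors. They had been given a tetracycline-inducible short hairpin RNA against WDR5, a subunit of the COMPASS histone H3K4 methyltransferase complexes, with a puromycin resistance marker. RNA-seq was performed on 6 libraries, of which 3 came from cells in vehicle (DMSO at 0.1%) and 3 from cells in doxycycline (DOX) at 500 ng/ml. The values used here are each gene's mean normalized count over all 6 libraries together, so that no level of a single library, no error and no difference between DOX and vehicle is given for any gene. Library depth is unknown from these values.

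Proteins that enter the secretory pathway are threaded into the ER through the SEC61 channel, trimmed by signal peptidase and glycosylated by oligosaccharyltransferase. Inside, the Hsp70 protein BiP (HSPA5), the Hsp90 protein GRP94 (HSP90B1), the lectins calnexin (CANX) and calreticulin (CALR) and the disulfide isomerases fold them, whereas chains that stay misfolded are returned to the cytosol by ERAD and degraded by the proteasome. When misfolded chains build up, the sensors IRE1 (ERN1), PERK (EIF2AK3) and ATF6 start the UPR, in which IRE1 splices the XBP1 transcript and ATF6 is cleaved to release a transcription factor. ATF6 and XBP1 are known to act through short promoter sequences, among them the ER stress response element, in which the NF-Y binding sequence CCAAT is followed after 9 bases by CCACG.

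An exact ER stress response element, read on either strand, was present in the promoter windows of 7 of the 34 members that have a window, which is 20.6% of them. The 7 members were HSPA5, HSP90B1, CALR, CANX, PDIA6, XBP1 and CRELD2. A window is 300 bases of the gene's strand, 250 before and 50 after a RefSeq transcription start, and the 34 members had 42 windows. PDIA3, DERL1, DERL3 and SEC24D had no window. The 27305 genes with a window include non-coding genes and genes not listed for these cells, such as LINC02213 and NLRP4. Among all 27305 genes, 25 held the element, which is 0.0916%, and members made up 28.0% of those 25 genes. The members were set by name, with UPR genes among them, so this and the later contrasts with all genes are descriptions and not tests. HSP90B1 held 2 elements, so that the 7 members held 8, of which 5 were read on the gene's own strand and 3 on the opposite strand. The 8 stretches are shown because they carry this count, each with 5 flanking bases on either side, 5′ to 3′ on the strand on which the element is read (RefSeq, GRCh38.p14). Capitals mark CCAAT and CCACG.
HSPA5, chr9:125241386-125241414, minus strand: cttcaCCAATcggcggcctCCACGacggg
HSP90B1, chr12:103930211-103930239, plus strand: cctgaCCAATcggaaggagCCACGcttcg
HSP90B1, chr12:103930316-103930344, minus strand: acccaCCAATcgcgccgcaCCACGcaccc
CALR, chr19:12938379-12938407, minus strand: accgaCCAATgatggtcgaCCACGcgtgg
CANX, chr5:179698773-179698801, plus strand: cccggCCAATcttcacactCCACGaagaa
PDIA6, chr2:10812848-10812876, minus strand: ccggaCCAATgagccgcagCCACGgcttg
XBP1, chr22:28800598-28800626, minus strand: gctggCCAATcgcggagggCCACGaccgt
CRELD2, chr22:49918549-49918577, minus strand: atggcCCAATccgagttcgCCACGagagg

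The 9 bases between CCAAT and CCACG differed in all 8 elements. Positions are counted on the gene's strand from the transcription start, with negative numbers before it. The element lay at -52 to -34 in XBP1 and at -66 to -48 in HSPA5, the gene of BiP. Those of CRELD2 and PDIA6 lay at -80 to -62 and -86 to -68. HSP90B1 had 1 element at -89 to -71 and another at -194 to -176, and CALR had its element at -225 to -207. CANX has several annotated starts, and its single element lay at -189 to -171, -151 to -133 or -9 to 9 according to the start used.

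By GENCODE release 44, the stretches of HSPA5, XBP1 and CALR lay outside every annotated gene. The stretches of PDIA6 and CRELD2 lay in no exon but within the gene's own span, which for both genes starts farther upstream. The stretch of CANX and both stretches of HSP90B1 overlapped an annotated exon of the same gene, and the distal one of HSP90B1 also overlapped an exon of the pseudogene TTC41P. The element of CRELD2 was shared with ALG12, a mannosyltransferase of N-glycan assembly, whose window on the opposite strand holds the same bases. In all windows there were 24 distinct exact elements, of which 8 were those of the members. Of 80 other ER genes with a window, 1 held the exact element, the oxidoreductase gene ERO1B. SERP1, whose product stabilizes membrane proteins at the translocon, and FICD, whose product modifies BiP, also held it, and neither was on the lists used here.

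**Figure D1:**
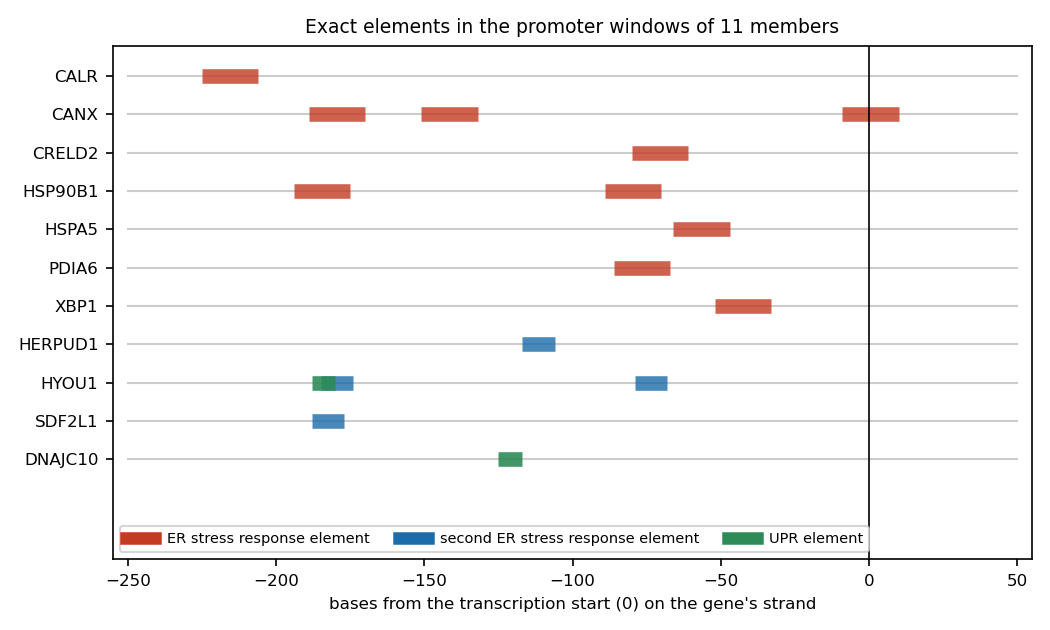
Position of each exact element (coloured bar) in the promoter windows of 11 members, in bases from the transcription start on the gene's strand; each grey line is a window from 250 bases before to 50 bases after the start. The elements of HSPA5, PDIA6, XBP1 and CRELD2 sit between -86 and -34, CALR has its element at -225 to -207, and CANX shows 1 element at 3 distances because it has several annotated starts.

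A second form of the element, ATTGG and CCACG separated by 1 base, was present in 3 members and in 0.0696% of all genes with a window. None of the 80 other ER genes with a window held it. HYOU1, an Hsp70-related chaperone and exchange factor for BiP, held 2, at -185 to -175 and -79 to -69. SDF2L1, a partner of ER DnaJ proteins, held 1 at -188 to -178, and HERPUD1, a membrane organizer of the ERAD complex, held 1 at -117 to -107. The 3 genes had no exact element of the first form, so the 2 forms together covered 10 of the 34 members. These stretches are shown for comparison with the first form, with ATTGG and CCACG in capitals.
HYOU1, chr11:119057375-119057395, plus strand: ctgggATTGGaCCACGtcacg
HYOU1, chr11:119057269-119057289, plus strand: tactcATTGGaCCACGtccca
SDF2L1, chr22:21642109-21642129, minus strand: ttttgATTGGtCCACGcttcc
HERPUD1, chr16:56932020-56932040, plus strand: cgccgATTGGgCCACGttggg

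The sequence TGACGTGG, known as a binding sequence of ATF6 and XBP1, was found on either strand in HYOU1 and DNAJC10 (2 of 34 members), in 9 of the 80 other ER genes and in 0.927% of all genes with a window. In HYOU1 it lay at -188 to -181 and overlapped the distal element of the second form on the opposite strand. CCAAT alone was present in 29 of the 34 members, in 37 of the 80 other ER genes and in 39.7% of all genes. CCACG alone was present in 25 members, in 62 of the 80 other ER genes and in 42.1% of all genes. GGGCGG, the core of a GC box, was present in 27 members, in 63 of the 80 other ER genes and in 48.3% of all genes. TATAAA was present in 3 members (CALR, P4HB and HERPUD1), in 1 of the 80 other ER genes and in 14.0% of all genes. The sequences other than the first form were chosen after the levels had been seen. A match describes the letters of the window and says nothing of binding in these cells.

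Levels of the members are given per kilobase of merged exons and, where named, per kilobase of the canonical transcript. A level per kilobase of merged exons is the mean normalized count divided by the total length of all annotated exons of the gene. The lengths are from GENCODE release 44, which may not be the annotation on which the authors counted reads. The members' median was 393.6 per kilobase of merged exons against 49.3 for all listed genes with a length and 78.3 for protein-coding genes. On this scale 34 of 38 members were above the median of all genes and 17 of 38 were in the top 10%. The summed mean normalized counts of the members were 1.545% of the sum over all genes, while the members are 0.192% of the genes. CALR, HSP90B1, CANX and HSPA5 held 62.26% of the members' sum and were among the 50 highest of all genes by mean normalized count. The levels per kilobase of merged exons ran from 4.13 (EDEM2) to 24055.51 (CALR), and from 15.28 (ERN1) without EDEM2 and DERL3, whose counting is uncertain as described with the ERAD genes.

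**Figure D2:**
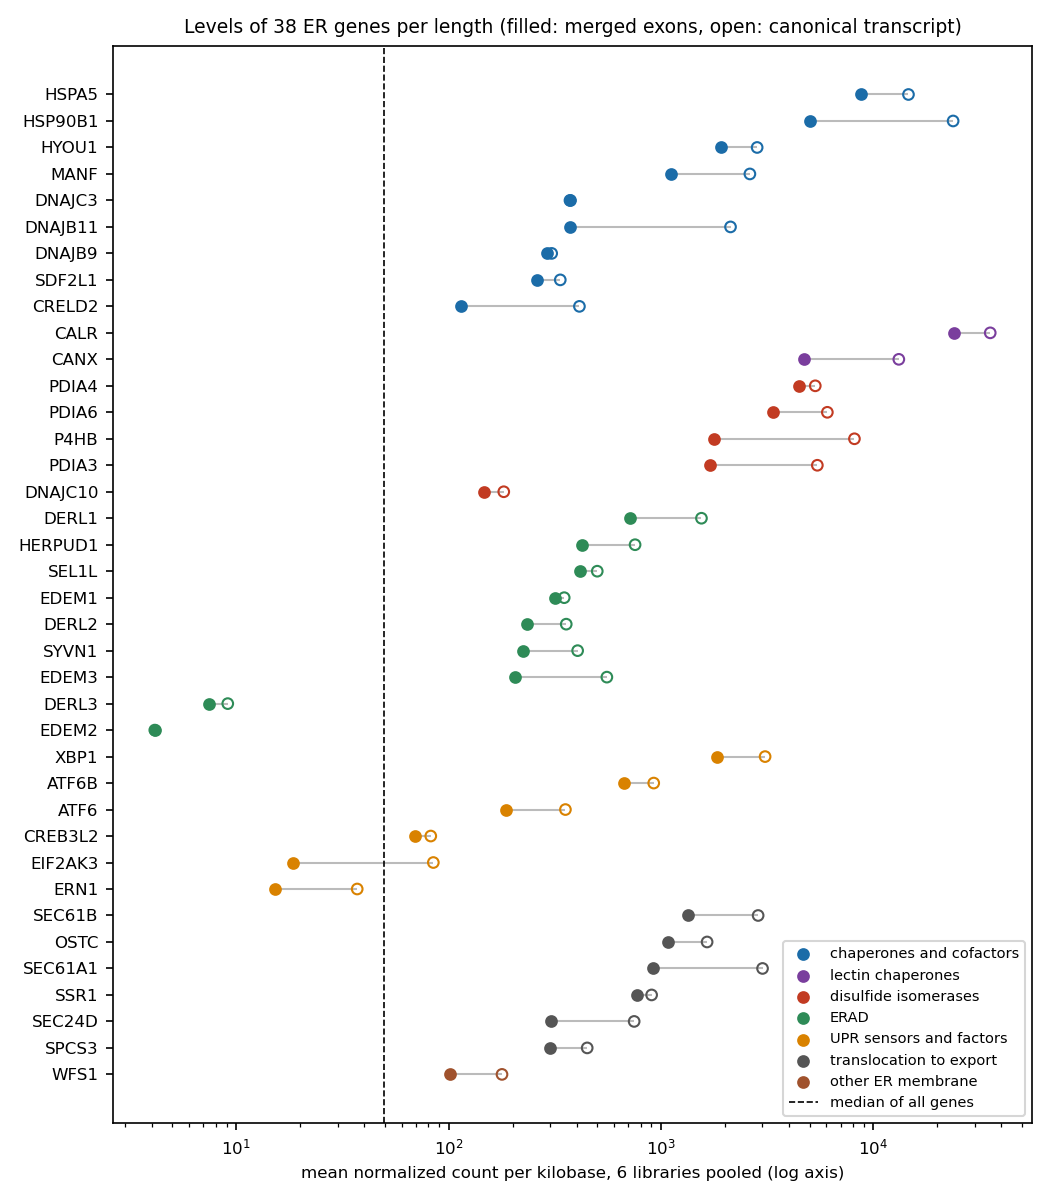
Mean normalized count per kilobase (log axis) of the 38 members by role; filled points use the merged exons, open points the canonical transcript, and the dashed line is the median of all genes with merged exons (49.3). CALR is highest on both lengths, EDEM2 and DERL3 lie far to the left of the other ERAD genes, and the sensors ERN1 and EIF2AK3 lie below the line on merged exons.

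The lectin chaperones, which hold glycoproteins by their trimmed sugar chains, included the highest member, CALR. It had a mean normalized count of 67403.5, or 24055.51 per kilobase of merged exons, and its membrane-bound relative CANX had 64687.4, or 4699.75 per kilobase. With nearly equal counts, the per-kilobase level of CALR was 5.12 times that of CANX on merged exons and 2.69 times on canonical transcripts. CALR lies at chr19:12938578-12944489 on the plus strand and CANX at chr5:179678628-179731641 on the plus strand (GRCh38).

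Among the Hsp70 and Hsp90 chaperones and their cofactors, all 9 members were above the median of all genes per kilobase of merged exons, with a group median of 372.3 on that length and 2122.4 on canonical transcripts. HSPA5 had 57292.9 counts and 8773.81 per kilobase of merged exons, and HSP90B1 had 65963.1 counts and 5038.43 per kilobase. The order of these 2 depended on the length used, since HSPA5 was 1.74 times HSP90B1 on merged exons but 0.62 times on canonical transcripts. HYOU1 followed with 1908.35 per kilobase of merged exons, so that HSPA5 was 4.60 times HYOU1 on that length and 5.16 times on canonical transcripts. MANF, a small secreted protein that binds BiP, had 1112.70 per kilobase of merged exons.

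The DnaJ cofactors of BiP, which deliver substrates and stimulate its ATPase, were lower. DNAJC3 had 372.31, DNAJB11 370.89 and DNAJB9 289.78 per kilobase of merged exons, although DNAJB11 reached 2122.41 per kilobase of its canonical transcript. The level of HSPA5 was 30.28 times that of DNAJB9 on merged exons and 47.86 times on canonical transcripts. SDF2L1 had 261.07 and CRELD2, a secreted ER protein with isomerase activity, had 114.01 per kilobase of merged exons, the lowest of the group on that length. On canonical transcripts CRELD2 had 412.45 per kilobase, above DNAJC3 (372.31), SDF2L1 (335.12) and DNAJB9 (305.29). On both lengths CRELD2 was the lowest of the 7 members with the exact ER stress response element shown above.

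The disulfide isomerases form and rearrange disulfide bonds in new proteins. PDIA4 had 4463.13, PDIA6 3374.01, P4HB 1780.55 and PDIA3, which works with the lectin chaperones, 1700.30 per kilobase of merged exons. On its canonical transcript PDIA3 had 5440.03 per kilobase. These 4 were all in the top 10% of genes. Their order changed on canonical transcripts, where P4HB was highest at 8133.40 per kilobase and PDIA4 lowest at 5319.62, so that P4HB was 0.53 times PDIA6 on merged exons and 1.34 times on canonical transcripts. DNAJC10, a DnaJ protein that reduces disulfides in ERAD substrates, stood apart at 146.02 per kilobase of merged exons and 181.60 of the canonical transcript. On coding length DNAJC10 had 1537.68 per kilobase, nearer to PDIA4, the lowest of the other 4 on that length at 7069.83.

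ERAD genes had a median of 233.4 per kilobase of merged exons, and 7 of 9 were above the median of all genes. DERL1, a derlin of the retrotranslocation channel, was highest at 715.52 per kilobase of merged exons and was the only ERAD member in the top 10%. HERPUD1 had 424.99, SEL1L, the adaptor of the ubiquitin ligase HRD1, had 414.85, and SYVN1, which encodes HRD1, had 223.64 per kilobase of merged exons. The 3 derlins fell far apart, with DERL2 at 233.38 and DERL3 at 7.42 per kilobase of merged exons, and DERL1 was 3.07 times DERL2 on merged exons and 4.33 times on canonical transcripts. The mean normalized count of DERL3 was 28.2. Exons of SMARCB1 on the opposite strand cover 77.0% of the exon bases of DERL3, and since the strand setting of the counting is not given in the sources used here, reads of SMARCB1 cannot be told apart from reads of DERL3.

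The EDEM genes encode mannosidase-like proteins that mark misfolded glycoproteins for ERAD. EDEM1 had 2137.6 and EDEM3 3797.1 mean normalized counts, and EDEM1 was 1.55 times EDEM3 per kilobase of merged exons but 0.63 times per kilobase of the canonical transcript. EDEM2 had a mean normalized count of 7.8 and was the lowest member on every scale, at 4.13 per kilobase of merged exons. The span of EDEM2 (RefSeq, GRCh38.p14, chr20:35115364-35147336) lies wholly within that of a read-through gene, MMP24-AS1-EDEM2 (chr20:35115364-35278122), which joins 2 neighbouring genes in 1 transcript and is listed as a gene of its own with a mean normalized count of 13.66. How reads that fall in both genes were assigned is not given in the sources used here. Of the listed genes, 43 were read-through genes of this kind, and 23 protein-coding genes were their downstream partners. These 23 genes had a median mean normalized count of 1.8, and 20 of them (87.0%) were under 50, against a median of 447.9 and 29.5% under 50 for the 15726 protein-coding genes that were no partner. With the upstream partners included there were 50 such genes, with a median of 19.4 and 58.0% under 50. The part of read-through annotation in the level of EDEM2 was not tested, and no ratio of EDEM2 to EDEM1 or EDEM3 is given.

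**Figure D3:**
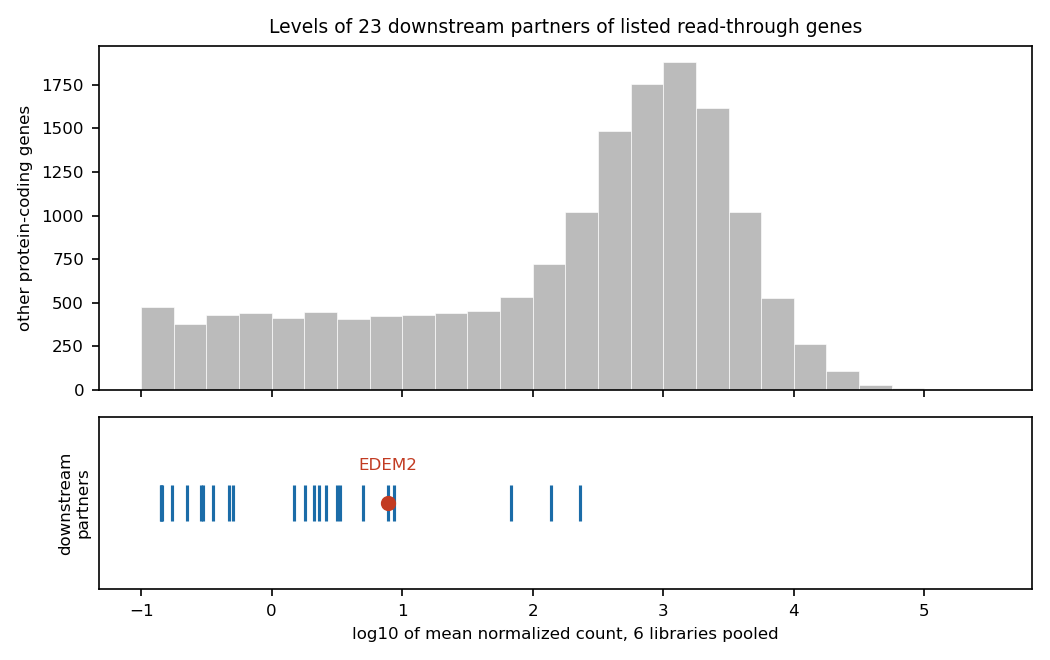
Log10 of the mean normalized count for 23 protein-coding genes that are the downstream partner of a listed read-through gene (blue ticks, EDEM2 in red) below a histogram of the 15726 protein-coding genes that are no partner. All but 3 of the 23 partners are under a mean normalized count of 50, including EDEM2 at 7.8.

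The UPR sensors and transcription factors had a median of 127.6 per kilobase of merged exons, and 4 of 6 were above the median of all genes. XBP1, the factor whose transcript IRE1 splices, was highest at 1826.33 per kilobase of merged exons. The sensor kinases were lowest, with EIF2AK3 at 18.55 and ERN1 at 15.28 per kilobase of merged exons. On canonical transcripts EIF2AK3 had 84.62 per kilobase, which was above the median of all genes on that length (79.5), and ERN1 had 37.07, which was below it. The level of XBP1 was 119.53 times that of ERN1 on merged exons, 83.30 times on canonical transcripts and 49.10 times on coding length. ATF6B exceeded ATF6 3.60 times on merged exons (667.95 and 185.59 per kilobase) and 2.60 times on canonical transcripts, but was 0.91 times ATF6 on coding length. CREB3L2, an ER-anchored factor of the OASIS family, had 69.54 per kilobase of merged exons. On canonical transcripts it had 82.31 per kilobase, which was below EIF2AK3. Spliced and unspliced XBP1 cannot be separated in gene counts.

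All 6 genes of translocation, signal peptide cleavage, glycosylation and export were above the median of all genes, with a group median of 841.7 per kilobase of merged exons. SEC61B and SEC61A1, subunits of the translocation channel, had 1335.57 and 915.29 per kilobase. OSTC, a subunit of oligosaccharyltransferase, had 1082.10 and SSR1, a subunit of the translocon-associated TRAP complex, had 768.04 per kilobase of merged exons. SEC24D, a cargo adaptor of COPII coats, had 302.40 (746.59 on the canonical transcript), and SPCS3, a subunit of signal peptidase, had 300.20 per kilobase of merged exons. SEC61A1 was 9.75 times its paralog SEC61A2 on merged exons and 20.38 times on canonical transcripts. WFS1, an ER membrane protein mutated in Wolfram syndrome, had 101.82 per kilobase of merged exons.

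The 93 listed genes of a wider ER list of the same roles had a median of 580.9 per kilobase of merged exons, above the 393.6 of the members (882.4 and 750.3 on canonical transcripts), and 43 of them were in the top 10%. Among chaperones and cofactors of the wider list, PPIB, a cyclophilin, was highest at 2847.00 per kilobase of merged exons. TXNDC11, which was placed in that role by the list used here, was lowest at 193.71, and SDF2 was next at 200.49. Among lectin chaperones and glucosidases, GANAB had 4796.66, and CLGN, a calnexin homologue of the testis, had 8.61. Among oxidoreductases, PRDX4 had 3845.30 and PDIA2, a pancreatic isomerase, had 0.41. Among ERAD genes, VCP, the ATPase that extracts substrates, had 1672.17, above all 9 ERAD members, and ERLEC1 had 73.42. Among sensors and factors, CREB3 had 1075.63 and CREB3L3, a liver factor, had 0.07. Among genes of translocation to export, RPN2 had 5178.30, above all 6 members of that role, and SEC61A2 had 93.87. On canonical transcripts ERLEC1 had 492.87 per kilobase, and FAM8A1 was the lowest ERAD gene of the wider list at 226.34. On that length SSR4 was the highest gene of translocation to export at 8627.37.

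**Figure D4:**
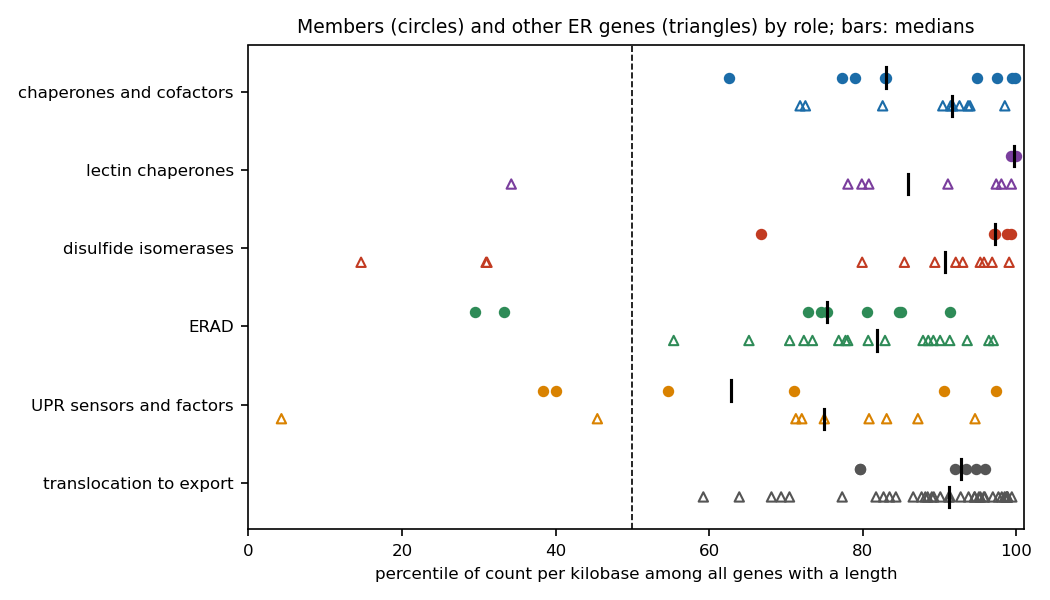
Percentile of the count per kilobase of merged exons among all genes with a length, for members (circles) and the wider ER list (triangles) by role; short black bars are group medians and the dashed line is the 50th percentile. Members exceed the wider list in median among lectin chaperones, disulfide isomerases and genes of translocation to export, and lie below it among chaperones and cofactors, ERAD genes and sensors; on canonical transcripts the direction turns for translocation to export (1274.4 against 1627.2) and for chaperones and cofactors (2122.4 against 818.3).

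The 7 members with the exact ER stress response element had a median of 4699.8 per kilobase of merged exons, from 114.01 for CRELD2 to 24055.5 for CALR. The 27 members with a window and no exact match had a median of 317.3, from 4.13 to 4463.1, so that the ranges overlapped. On canonical transcripts the medians were 13161.2 and 448.7. XBP1, HSPA5, HSP90B1, CALR, CANX and PDIA6 thus combined the element with levels in the top 10% of genes, and CRELD2 did not. Outside the members, the carriers ERO1B, FICD and ALG12 had mean normalized counts of only 81.74, 65.42 and 255.99, while SERP1 had 4415.26. Per kilobase of merged exons ERO1B had 5.32. PDIA4, at 4463.13 per kilobase of merged exons, was the highest member with a window and no exact match. The groups were not compared by a test, because levels of genes in 1 set of pooled libraries are not replicates.

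Genes that define other cells were checked in the same values. The mesenchymal markers VIM, FN1, SPARC, ZEB1, COL1A1 and CDH2 had mean normalized counts, not divided by length, from 4093.02 (CDH2) to 47782.10 (VIM). The 10 epithelial and luminal markers ranged from 0.52 (FOXA1) to 1220.98 (ERBB2). Among them EPCAM, ESR1 and PGR had 1.30, 0.79 and 0.80, and KRT19, KRT8 and CDH1 had 17.66, 57.33 and 59.59. GATA3 (362.40), KRT18 (434.90) and ERBB2 were above the median count of all listed genes (187.2). Of the leukocyte and endothelial markers VWF and PECAM1 had 0.62 and 2.86, PTPRC had 44.67 and CD68, a lysosomal protein, 1813.10, and CD3E was not among the listed genes. WDR5 had 1143, a mean over both groups that cannot show whether the hairpin lowered it.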

How the data were processed

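RNA-seq was performed in BT-549 cells with tet-inducible WDR5 silencing (3 vehicle and 3 DOX libraries). Stranded poly(A) libraries were aligned by the authors to GRCh38 with STAR, and counts were normalized with DESeq2. The labels name a column kit for RNA isolation and the paper names Trizol. The gene counter, its strand setting, the filter on low counts and the tool versions are not given in the sources used here. The deposited value used is the mean normalized count over all 6 libraries, a signal value the authors computed, printed here as their mean with no SD. The other deposited columns hold the authors' comparison of DOX with vehicle (log2 fold change, standard error, Wald statistic and p-values) and were not used. The planned count test needs single libraries and was replaced by a description. Depth is unknown.

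Listed symbols were matched to GENCODE release 44 (17729 by symbol, 863 by an older symbol in RefSeq, 1200 not matched), and means were divided by the length of merged exons, the canonical or the longest transcript, or the coding sequence. Promoter windows are from RefSeq (GRCh38.p14). The element scan was tested on simulated windows and recovered 1000 of 1000 planted elements. Genes named are all 38 members and, from the wider ER list, the highest and the lowest of each role per kilobase of merged exons. Other genes were named after their values were seen. A marker on the cell marker list is not reported here. The members, lists and tests were chosen with earlier results of these data known. Paralog pairs, read-through genes, overlapping exons and all sequences other than the first element were examined after the values were seen. Python 3.11.15 with pandas 2.3.3, numpy 2.4.6 and matplotlib 3.10.9 was used.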

Additional observations from a re-analysis of the deposited data

How the results depend on the processing

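The number of members in the top 10% of genes by mean normalized count was 17, and it was 13 among genes with a mean of at least 10 and 15 among protein-coding genes. Per kilobase it was 17 on merged exons, 17 on longest transcripts, 18 on coding length, 14 among genes with a mean of at least 10, and 16 on canonical transcripts, the last chosen after seeing the data. With 1 mismatch allowed in CCACG, 12 members in place of 7 held the ER stress response element, adding HYOU1, SDF2L1, HERPUD1, SEL1L and WFS1, against 1.28% of all genes. It was 7 with bases before the start only. The members' share of the summed mean normalized counts was 1.545%, and 1.576% with protein-coding genes alone in the sum. The median per kilobase of the members was 393.6 on merged exons, 679.5 on longest transcripts, 750.3 on canonical transcripts and 1955.8 on coding length. Merged exons of the members were a median of 1.72 times as long as canonical transcripts. The level per kilobase was over 1.5 times that on merged exons in 23 of 38 members on canonical transcripts, 17 on longest transcripts and 37 on coding length. With canonical length, 7 members moved by 5 or more ranks among the 38. No paired analysis was possible because the values used are means over all 6 libraries. For the same reason leaving out a library, DESeq2 against edgeR and a filter on counts were not run, nor was the count of proteins ending in KDEL, since protein sequences were not used here. Depth and replicate error limit every value, as neither is known for single libraries from the values used.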

Other observations

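Listed pseudogene copies of members had mean normalized counts far below those of the members they resemble. PDIA3P1 had 651.60, which was 3.255% of the count of PDIA3, HSP90B2P had 134.29, or 0.204% of HSP90B1, and OSTCP1 had 1.70, or 0.097% of OSTC. How reads that fit both a member and its copy were assigned is not given in the sources used here, so the counts of these 3 members are uncertain.

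Exons of ATP6V1C2 on the opposite strand cover 25.2% of the exon bases of PDIA6, the next largest share after that of DERL3. For the other 36 members the share covered on the opposite strand was at most 9.8% (HYOU1), and the share covered by another gene on the same strand in GENCODE was at most 9.9% (ATF6B). That annotation gave no such overlap for EDEM2, whose span in RefSeq lies wholly within the read-through gene MMP24-AS1-EDEM2.

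Relative levels of subunits of 1 complex, and of related genes, changed with the length used. Of the TRAP subunits, SSR1 was 0.58 times SSR2 per kilobase of merged exons and 0.11 times per kilobase of the canonical transcript, and SSR3 and SSR4 had 1177.40 and 1149.31 per kilobase of merged exons but 1439.51 and 8627.37 on canonical transcripts. On coding length SSR1 was 0.61 times SSR2, and by mean normalized count 0.99 times. Of the COPII cargo adaptors, SEC24D was 0.51 times SEC24C on merged exons, 1.04 times on canonical transcripts and 1.0 times on coding length. SEC61A1, SEC61B and SEC61G, which form a single channel, had 915.29, 1335.57 and 1290.90 per kilobase of merged exons, and 3003.18, 2862.95 and 5594.92 on canonical transcripts. Among the OASIS factors CREB3L1 was 7.20 times CREB3L2 on merged exons, 9.16 times on canonical transcripts and 3.3 times on coding length.

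Among the 25 genes whose windows held the exact ER stress response element, the second pair that shared 1 element was EIF2A and SERP1, which are transcribed away from each other, with mean normalized counts of 3117.00 and 4415.26. The near-identical genes FRG2, FRG2B and FRG2C also held it and had mean normalized counts of 2.12, 0.29 and 1.12, and the glycine receptor gene GLRA2 had 0.98, so the element was also found before genes with few reads in these cells.

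TXNDC5, an isomerase of the wider list, had a mean normalized count of 22.64, in the same range as DERL3 and EDEM2 and below every other isomerase of either list except PDIA2 at 0.92. Read-through genes were examined only where listed, and overlap of TXNDC5 with other genes was not examined, so its count is uncertain.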
